A study of Homo sapiens with 6 samples.

Results

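The major histocompatibility complex (MHC) region was described here through its chromatin loops in HAP1 cells, a near-haploid human cell line of chronic myeloid leukaemia origin that grows attached to the dish. Members were the loops on chromosome 6 with both anchors between 29500000 and 33500000 (hg19), and 157 of the 46849 loops of the list met this rule. The rule uses position only and no measured value. Contacts came from Micro-C, a variant of Hi-C that cuts chromatin with micrococcal nuclease. All samples form 1 group of 6 wild-type replicates without any treatment, grown from HAP1 cells that had been sorted for a diploid DNA content. They were crosslinked with 1% formaldehyde for 10 min and with 3 mM DSG for 45 min. Counts, expectations and q-values of single loops are those of the authors' deposited table. That table pools the replicates, so no spread between them can be given, and every interval or p below covers counting error only.

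The MHC is divided into 3 classes by the genes they hold. Class I genes encode the heavy chains that present peptides from inside the cell to cytotoxic T cells, and class II genes encode the chains with which professional antigen-presenting cells show peptides to helper T cells. The class III part between them holds genes of other kinds, among them tumour necrosis factor and complement components. The number of gene copies differs between human haplotypes at some of these loci, such as HLA-DRB and C4, and a reference genome shows a single haplotype.

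In the RefSeq gene table (GRCh38.p14, used for gene order alone) the class I stretch was read here from HLA-F. It ran on through HLA-G, HLA-E, the pluripotency transcription factor gene POU5F1, HLA-C, HLA-B, MICA and MICB. It listed 139 genes from HLA-F to MICB, of which 49 were protein-coding and 59 pseudogenes. Class III followed with the cytokine genes LTA, TNF and LTB, the heat shock gene HSPA1A, the complement genes C2, CFB, C4A and C4B, the steroid hydroxylase gene CYP21A2, TNXB and NOTCH4. From MCCD1 to NOTCH4 there were 88 genes, 59 of them protein-coding and 7 pseudogenes. Class II then ran through HLA-DRA, HLA-DRB5, HLA-DRB1, HLA-DQA1, HLA-DQB1 and HLA-DOB to the peptide transporter genes TAP2 and TAP1 and the immunoproteasome genes PSMB8 and PSMB9. HLA-DMB, HLA-DMA, BRD2, HLA-DOA, HLA-DPA1 and HLA-DPB1 followed, with RXRB and DAXX beyond them, and the stretch from HLA-DRA to HLA-DPB1 listed 32 genes, 18 of them protein-coding. These bounding genes are textbook ones and were not matched to the hg19 limits of the loops. Loops are therefore named by position, and which gene lies at an anchor was not analysed here.

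The MHC region was rich in loops. It carried 39.25 loops per Mb (exact Poisson 95% interval 33.4 to 45.9) against 15.9 in the rest of the genome, a ratio of 2.46 (95% interval 2.09 to 2.88). An exact conditional binomial test, two-sided and adjusted over 5 comparisons, gave p = 3.84e-22. Against the rest of chromosome 6, with 17.6 loops per Mb, the ratio was 2.23 (interval 1.89 to 2.62, adjusted p = 6.86e-18, same exact test). Loops share anchors and are not independent, so these p-values are too small. Of 732 other windows of 4 Mb that hold an anchor, 1 had as many loops, on chromosome 19 between 44000001 and 48000000, and the median window had 15.0 loops per Mb. Contact depth in the region was also slightly higher. The donut expectation, the contact count that the surroundings of a loop predict, lay a median of 0.13 on the log2 scale above that of loops elsewhere with like span (interval 0.03 to 0.24). The part of depth in the loop density was not tested.

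Contact counts of the region's loops were higher than in the list as a whole, and a smaller share of these loops exceeded 400 kb. Their median span was lower than in the rest of the genome, though its interval held that value. The intervals for q-values and pixel support also held the shares of the list. The median span was 110 kb (order-statistic 95% interval 95 to 165 kb) against 160 kb in the rest of the genome. Of the region's loops, 68 (43.3%, exact binomial 95% interval 35.4 to 51.4%) were under 100 kb, where the whole list had 36.3%. Both intervals hold the value of the comparison. Loops over 400 kb were 22 (14.0%) in the region, against 21.9% in the rest of the genome. The rule asks for both anchors within the same 4 Mb, which leaves out longer loops. The median loop had 43 observed contacts (quartiles 27 and 74, range 8 to 211) against 31 elsewhere. At least 100 contacts were seen in 20 loops (12.7%, interval 7.96 to 19.0%), against 4.58% of all loops. These counts were not compared at like span. All 4 deposited q-values, which compare a loop with each of its surroundings, were at or below 0.1 in 124 loops (79.0%, interval 71.8 to 85.1%), an interval that holds the 72.0% of the list. A single significant pixel supported 18 loops (11.5%, interval 6.94 to 17.5%), near the 8.94% of the list. Anchors were 5 kb wide in 133 loops and 10 kb wide in 24.

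**Figure D1:**
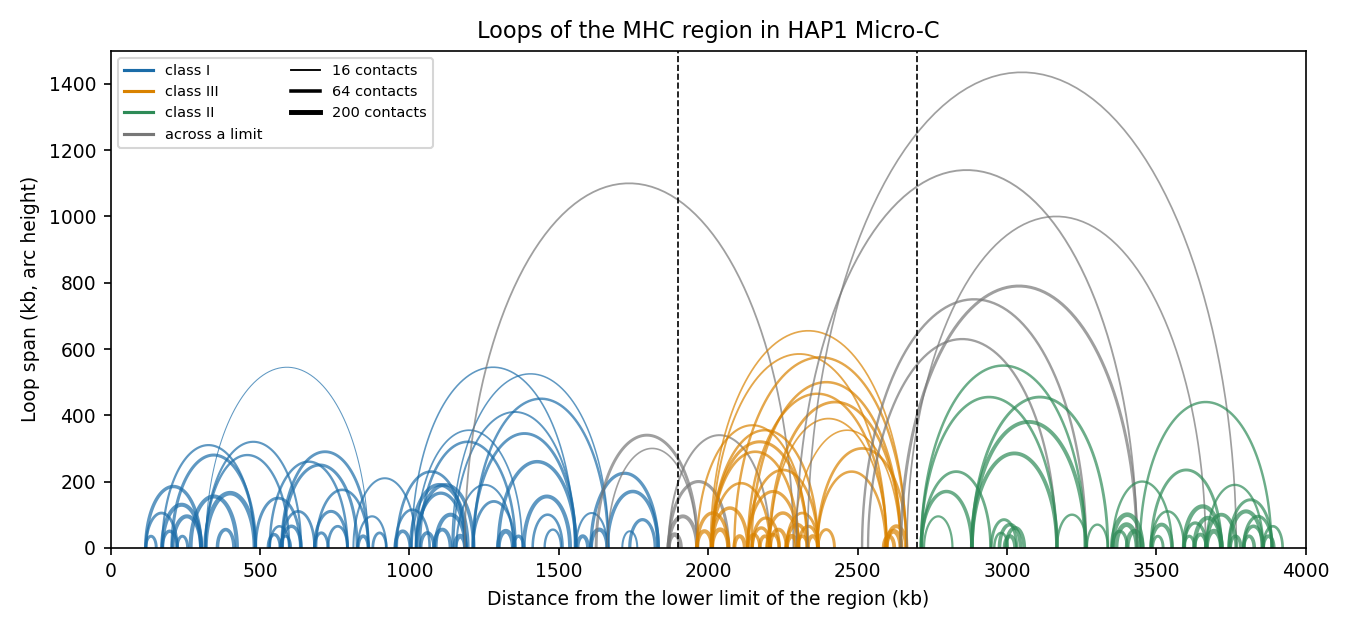
Loops of the MHC region. The x axis is the distance in kb from the lower limit of the region, each arc joins the anchors of 1 of the 157 loops, its height is the span in kb, its thickness grows with the log of observed contacts, and dashed lines mark the inner class limits. Long arcs crowd in class III, while 13 grey arcs cross a limit.

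Of the 157 loops, 64 lay inside class I (29500000 to 31400000), 39 inside class III (31400000 to 32200000) and 41 inside class II (32200000 to 33500000), and 13 crossed an inner limit. Class III had the most loops per Mb, 48.75 (exact Poisson interval 34.7 to 66.6). Class I had 33.7 (25.9 to 43.0) and class II 31.5 (22.6 to 42.8). The ratio of class III to class I was 1.45 (interval 0.946 to 2.19) and that of class III to class II 1.55 (0.971 to 2.46). Neither passed the exact conditional binomial test (adjusted p = 0.104 for both, two-sided), and class II over class I gave 0.936 (interval 0.617 to 1.41, adjusted p = 0.767, same exact test). These intervals leave room for a class III density of up to 2.19 times that of class I.

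A class that is 0.8 Mb long loses more loops at its limits than one of 1.9 Mb. When single loop ends were counted instead of whole loops, and halved, the classes had 56.25 (class III), 35.8 (class I) and 34.6 (class II) per Mb. The ratios of class III were then 1.57 to class I and 1.63 to class II, and both passed the same exact test (adjusted p = 0.0286 for each, in a range over 11 alternatives of 0.0286 to 0.593 and 0.0286 to 0.650). With every loop, crossing ones included, placed in the class of its midpoint, the ratios were 1.47 and 1.45. Neither passed the same exact test (adjusted p = 0.0993 and 0.102). Contact depth was also highest in class III. Its median donut expectation was 0.36 above the like-span median on the log2 scale (interval 0.19 to 0.51), where class I had 0.05 (-0.18 to 0.17) and class II 0.14 (-0.06 to 0.43). Without 4 class II loops of very low expectation, described below, class II had 0.31 (-0.0072 to 0.47), close to class III. The part of this depth in the loop counts was not tested.

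Each class stood high among stretches of its own length. For class III, 2 of 3454 other windows of 0.8 Mb had at least as many loops, the fullest with 40 on chromosome 17 between 7200001 and 8000000. As many as in class I were found in 15 of 1501 windows of 1.9 Mb, and as many as in class II in 38 of 2171 windows of 1.3 Mb. The median windows had 11.25, 14.2 and 13.1 loops per Mb for the lengths of class III, I and II.

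**Figure D2:**
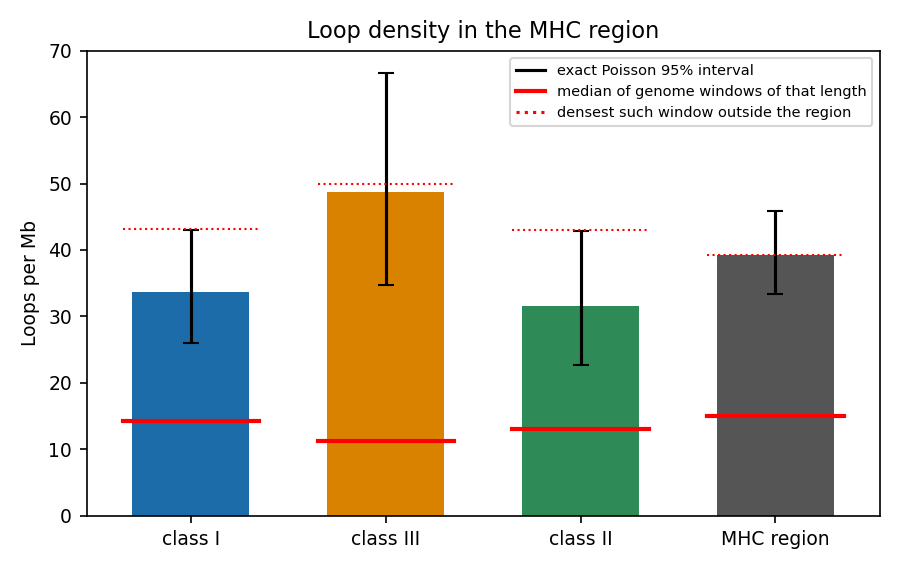
Loops per Mb in each class and in the whole region. Bars start at 0, black error bars are exact Poisson 95% intervals, red lines give the median of genome windows of the same length, and dotted lines the densest window outside the region. Each bar stands above its median window, and the intervals of the 3 classes overlap.

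Median spans had overlapping intervals in the 3 classes. The median was 122.5 kb in class I (order-statistic interval 95 to 175 kb), 105 kb in class III (55 to 290 kb) and 90 kb in class II (65 to 110 kb). Class III had the widest quartiles, from 52.5 to 337.5 kb, and 6 of its 39 loops exceeded 400 kb, against 5 of 64 in class I and 4 of 41 in class II. Loops under 100 kb made up 39.1% of class I, 46.2% of class III and 56.1% of class II. No test was made, since loops are not replicates and the length of a class limits the spans it can hold.

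Strength, the observed count over the donut expectation, had medians whose intervals overlapped among the 3 classes. The median was 3.91 in class I (interval 3.30 to 5.12), 3.68 in class III (3.19 to 4.40) and 4.28 in class II (3.18 to 6.73), against 3.55 in the rest of the genome. Strength rises with span across the list, so each loop was also set against the median of loops elsewhere with the same anchor width and like span. On that scale 105 of the 157 loops (66.9%, exact interval 58.9 to 74.2%) were above the median, as are 50.0% of the whole list. Class II lay 0.41 above it on the log2 scale (interval 0.10 to 1.01), with 31 of 41 loops higher. Class I lay 0.07 above (0.0018 to 0.41), with 41 of 64 higher, and class III 0.09 above (-0.15 to 0.28), with 22 of 39 higher. Part of the class II value came from 4 loops described below. With all 4 q-values at or below 0.1 the median ratios were 6.65 in class II (interval 3.53 to 7.68), 4.99 in class I (3.81 to 5.85) and 3.75 in class III (3.35 to 4.93). These intervals overlap. This filter itself draws on observed and expected counts, and the 4 loops stayed in class II. Without the 4 loops, and without this filter, the class II median ratio was 3.68. The median on the like-span scale was then 0.23 (interval 0.06 to 0.61), with 27 of 37 loops higher.

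**Figure D3:**
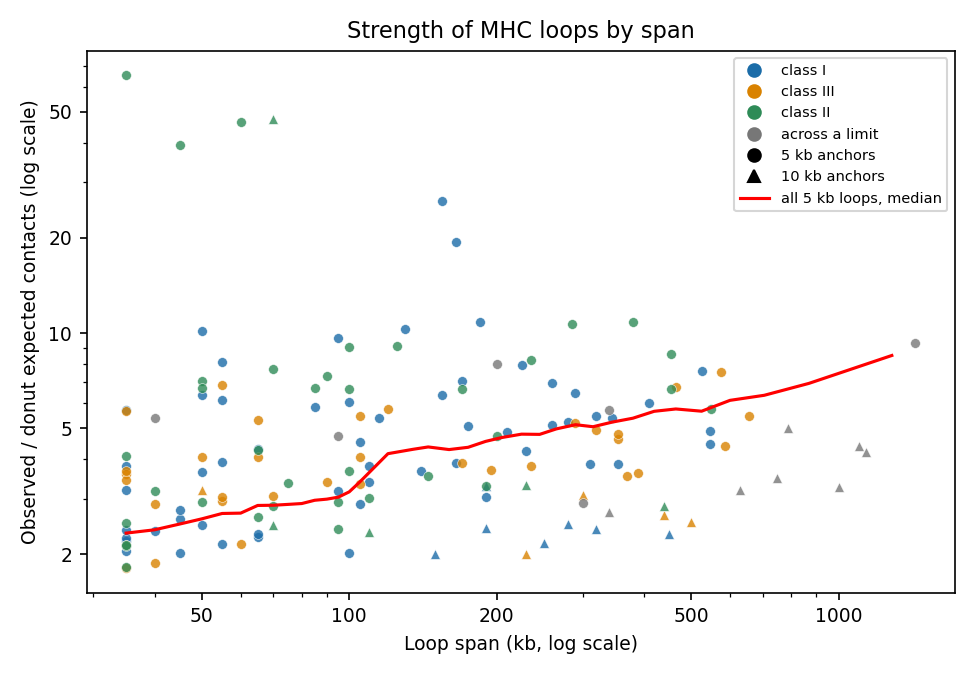
Strength of the 157 loops against span, both on log axes. Points are loops coloured by class, circles have 5 kb and triangles 10 kb anchors, and the red line is the median of all 5 kb loops. Most points scatter about the line, and 4 class II loops of at most 70 kb stand at ratios of 39.4 to 65.3.

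Class I held the highest count of the region. There, 211 contacts (exact Poisson interval 183 to 241) joined 30650001 to 30655000 with 30685001 to 30690000, where 36.8 were expected, over 21 merged pixels. The loop between 30795001 to 30800000 and 30845001 to 30850000 had 180 contacts (interval 155 to 208) against 17.7 expected. The third by count, with 149 contacts (126 to 175) against 7.66, joined 29815001 to 29820000 with 29980001 to 29985000. The intervals of the first and the third do not overlap, while that of the second overlaps both.

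By ratio the order was another one. The strongest joined 29765001 to 29770000 with 29920001 to 29925000, with 100 contacts (81.4 to 122) against 3.82 expected, a ratio of 26.2. Its expectation was low for its span of 155 kb, at which loops elsewhere had a median of 7.68. The loop of 149 contacts followed with 19.4, and its expectation of 7.66 was next to the like-span median of 7.68. Next came 29615001 to 29620000 with 29800001 to 29805000, with 58 contacts (44.0 to 75.0) against 5.35, a ratio of 10.8. The anchor at 29800001 to 29805000 also received 101 contacts from 29670001 to 29675000 (ratio 10.3) and 100 from 29705001 to 29710000 (ratio 9.69). The loop of 180 contacts, elsewhere in class I, lay between these ratios with 10.2. All 3 loops of the anchor at 29800001 ran to lower coordinates.

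The longest class I loops had few contacts. Both spanned 545 kb, with 8 contacts (3.45 to 15.8) between 29815001 to 29820000 and 30360001 to 30365000, and 13 contacts (6.92 to 22.2) between 30505001 to 30510000 and 31050001 to 31055000. Toward class III, the anchor at 31160001 to 31170000 held 6 loops, the most of class I, 4 of them to lower coordinates. Its loop with 31105001 to 31110000 had 106 contacts against 13.1 expected, and that with 31330001 to 31335000 had 64 against 9.05.

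Class III anchors held 5 or more loops more often than those of the other classes. Anchors were counted over all 157 loops, also the 13 that cross a limit, each of which has an end in class III. The region had 135 anchors after overlapping ones were merged, or 33.75 per Mb, and the classes were close to one another: 35.8 per Mb in class I, 33.75 in class III and 30.8 in class II. In all, 74 of the 135 (54.8%, exact interval 46.0 to 63.4%) held at least 2 loops, where the whole list has 45.9%. At least 5 loops were held by 14 (10.4%, interval 5.79 to 16.8%), where the list has 6.71%. Of these 14, 9 lay in class III, out of its 27 anchors (33.3%), against 2 of 68 in class I and 3 of 40 in class II. Closed triangles, in which 3 anchors are all joined to each other, numbered 16 in class III, 11 in class II and 5 in class I, and 1 crossed a limit. Per 100 loops that makes 41.0, 26.8 and 7.81, against 12.4 in the whole list.

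The busiest class III anchor, 31510001 to 31515000, held 8 loops with 450 contacts in all, 7 of them to higher coordinates. Its nearest partners had the most contacts, 107 with 31460001 to 31465000 on the lower side and 134 (112 to 159) with 31565001 to 31570000 on the upper side. The latter took in 34 merged pixels, with 19.6 contacts expected. Farther partners of the same anchor had 63 contacts at 120 kb, 30 at 195 kb, 31 at 290 kb, 43 at 320 kb, 26 at 355 kb and 16 at 585 kb. The ratios of these 8 loops stayed between 3.70 and 6.84, while the counts of its far partners were lower than those of its nearest ones.

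Other class III anchors ran both ways. The anchor at 31860001 to 31870000 also held 8 loops (346 contacts), 5 to lower and 3 to higher coordinates. With 7 loops, 31700001 to 31710000 had 4 to lower and 3 to higher coordinates. The anchors 31460001 to 31470000, 31830001 to 31835000 and 32090001 to 32100000 each held 6. In class II the fullest was 33160001 to 33170000, also with 6 loops, 3 each way and 458 contacts, the highest sum of the 8 fullest anchors.

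By count the leading class III loop joined 32090001 to 32100000 with 32140001 to 32150000, with 209 contacts (182 to 239) against 65.4 expected. Its anchors are 10 kb wide, so that its pixel covers more of the map than that of a 5 kb loop. Next was a 35 kb loop from 31760001 to 31765000 to 31795001 to 31800000, with 160 contacts (136 to 187) against 28.2. The strongest by ratio was long: 31585001 to 31590000 met 32160001 to 32165000, 575 kb away, in 25 contacts (16.2 to 36.9) against 3.32, a ratio of 7.53. A loop of 465 kb between 31630001 to 31635000 and 32095001 to 32100000 had 26 contacts and a ratio of 6.75. The longest of the class, 655 kb, joined 31505001 to 31510000 with 32160001 to 32165000 in 14 contacts, followed by the 585 kb loop of the busiest anchor. No class III ratio exceeded 7.53, whereas the highest were 26.2 in class I and 65.3 in class II.

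**Figure D4:**
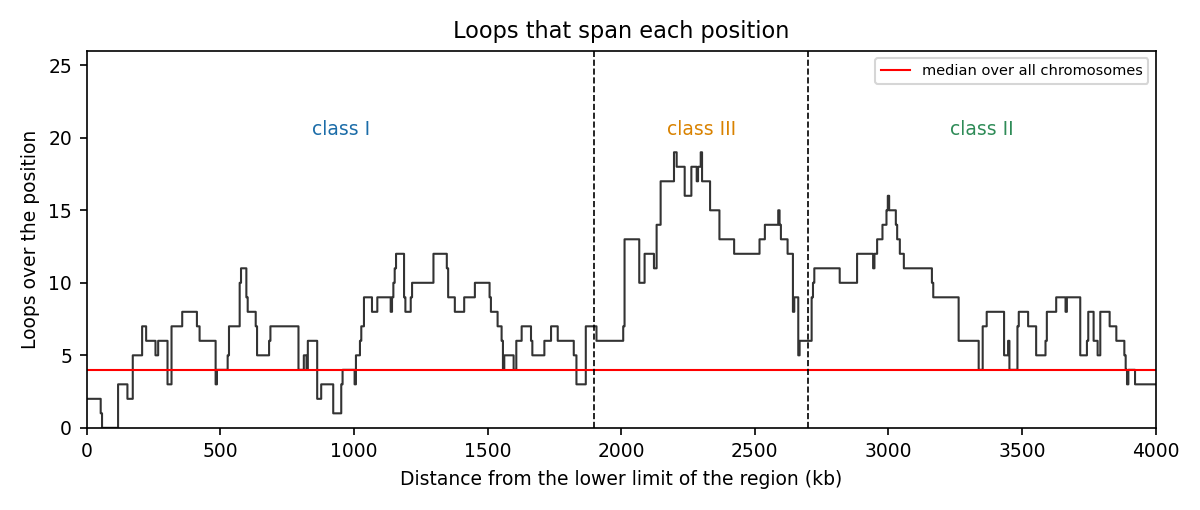
Number of chromosome 6 loops, those that leave the region included, that span each position along the region, in steps of 5 kb. The x axis is the distance in kb from the lower limit, dashed lines mark the class limits, and the red line is the median over all chromosomes, 4 loops. The count peaks at 19 in class III and drops to 6 at the limit to class II.

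The number of loops over a position traced this arrangement. A median of 13 loops spanned a position in class III, 8 in class II and 6 in class I, against 4 over all chromosomes. The peak was 19 loops, at 31700000, 31705000 and 31800000. All loops of chromosome 6 were counted, those that leave the region included. Only the stretch from 29560001 to 29615000 was spanned by no loop. From there to 33425000 the region's own loops formed an unbroken chain of overlapping loops. Above it, only loops that leave the region spanned the positions. The thinnest place of that chain lay in class I between 30425000 and 30450000, with 1 loop at its lowest.

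At the inner limit of 31400000 there were 7 crossing loops. The median over positions was 6 in class I, 13 in class III, 8 in the whole region and 4 over all chromosomes. Of the 7 crossing loops, 4 started from 1 anchor, 31365001 to 31370000, and all ran to higher coordinates. They reached 31405001 to 31410000 with 138 contacts (116 to 163, ratio 5.40), 31460001 to 31465000 with 87 (ratio 4.72), 31565001 to 31570000 with 45 (ratio 7.99) and 31705001 to 31710000 with 18 (ratio 5.72). A 340 kb loop with 10 kb anchors, 31120001 to 31130000 with 31460001 to 31470000, had 39 contacts and a ratio of 2.72. The longest over this limit, from 30680001 to 30690000 to 31780001 to 31790000, spanned 1100 kb in 15 contacts (8.40 to 24.7). The remaining loop had 13 contacts and a ratio of 2.90.

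At 32200000 there were 6 crossing loops, all of them long. The best supported joined 32140001 to 32150000 with 32930001 to 32940000 over 790 kb, with 41 contacts (29.4 to 55.6) against 8.20 expected. A loop of 750 kb from 32010001 to 32020000 to 32760001 to 32770000 had 25 contacts. Another, of 630 kb from 32030001 to 32040000 to 32660001 to 32670000, had 23. The other 3 had 14 to 16 contacts over 1000, 1140 and 1435 kb. The longest loop of the region, 1435 kb, was among them and joined 31830001 to 31835000 with 33265001 to 33270000 at a ratio of 9.32, in a single pixel. When the limit was placed 100 kb lower, 13 loops crossed it, and 11 when it was placed 100 kb higher, so that 32200000 falls in a dip of the profile. The 13 crossing loops of both limits had a median of 23 contacts. All 4 q-values were at or below 0.1 in 8 of them (61.5%), where the whole list has 72.0%. This difference was not tested.

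At the outer limits 5 further loops ended inside the region and left it. From below, 28650001 to 28655000 met 29555001 to 29560000 in 17 contacts (ratio 9.77, a single pixel), and 28800001 to 28810000 met 29550001 to 29560000 in 19 (ratio 2.82). At the upper limit, 33380001 to 33390000 met 33670001 to 33680000 in 40 contacts (ratio 2.63). Both other loops ended at 33535001 to 33540000, one from 33085001 to 33090000 with 11 contacts (ratio 3.76) and one from 33395001 to 33400000 with 19 (ratio 3.32).

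In the lower part of class II a small set of anchors was joined over long distances. From 32380001 to 32385000, 82 contacts (65.2 to 102) reached 32665001 to 32670000, and again 82 reached 32760001 to 32765000, at ratios of 10.7 and 10.8. From the same anchor 36 contacts reached 32835001 to 32840000, over 455 kb. The anchor 32210001 to 32215000 met the same partners at 32665001 to 32670000 (30 contacts, 455 kb) and 32760001 to 32765000 (27 contacts, 550 kb, the longest of the class). After merging, these anchors without the one at 32835001 made up 4 closed triangles.

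The 3 longest stretches of the region without an anchor also lay in this lower part. They were 32560001 to 32660000 (100 kb), 32225001 to 32315000 and 32670001 to 32760000 (90 kb each). All were bridged, by 11, 11 and 9 loops. In class III the longest such stretch was 31925001 to 32010000 (85 kb), bridged by 12 loops. The list does not show whether contacts, mappable sequence or loops were missing there.

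The upper part of class II held its highest counts. The first was 204 contacts (177 to 234) between 33165001 to 33170000 and 33215001 to 33220000, against 30.4 expected. The next, with 10 kb anchors, was 176 contacts (151 to 204) between 32860001 to 32870000 and 32930001 to 32940000 against 70.9, followed by 173 (148 to 201) between 32900001 to 32905000 and 32950001 to 32955000 against 24.5. The intervals of all 3 overlap. The anchor at 33215001 to 33220000 also received 121 contacts from 33090001 to 33095000 and 122 from 33125001 to 33130000, and these 3 partners were joined to each other.

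The region's 4 highest ratios belonged to short class II loops with very low expectations, all within 32455001 to 32560000. The first joined 32490001 to 32495000 with 32525001 to 32530000 in 98 contacts (79.6 to 119) where 1.50 were expected, a ratio of 65.3. The second, with 10 kb anchors, joined 32470001 to 32480000 with 32540001 to 32550000 in 69 contacts (53.7 to 87.3) against 1.45, a ratio of 47.6. The third joined 32495001 to 32500000 with 32555001 to 32560000 in 82 (65.2 to 102) against 1.77, a ratio of 46.4. The fourth joined 32455001 to 32460000 with 32500001 to 32505000 in 27 (17.8 to 39.3) against 0.685, a ratio of 39.4. Among the 17021 loops of the list under 100 kb, these ranked 3, 5, 6 and 7 by ratio.

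Their counts, from 27 to 98, lay below the region's highest of 211. The whole list, at all spans, had a median of 31 contacts and an upper quartile of 48, and 4.58% of its loops had 100 or more. The counts of 98, 82 and 69 lay above that quartile, and 27 lay below the median. The surroundings of the 4 loops predicted very few contacts, while contacts around the loops are not listed themselves. Loops elsewhere of like span and width had median expectations of 20.9, 45.8, 13.9 and 17.0 in the order of the first to the fourth. The 4 loops had 7.19, 3.16, 12.7 and 4.03% of those. Under 25% of the like-span median, a bound chosen after the values had been seen, lay these 4 of the 157 loops (2.55%, exact interval 0.698 to 6.39%) and 0.568% of the whole list. Each of the 4 expectations was low: against the highest of them the ratios were still 46.2, 18.9, 33.2 and 17.5.

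In the region, expectations this low were found only for these 4 loops, which have both anchors within 32455001 to 32560000. A loop that starts 10 kb below these 4, from 32445001 to 32450000 to 32530001 to 32535000, had 39 contacts against 5.79 expected, where the like-span median was 10.6. Its upper anchor lies inside the stretch, and the lowest of its 4 expectations, that of the vertical surroundings, was 1.50. The pair of loops from 32380001 to 32385000 with 82 contacts each passes over the whole stretch, with all anchors outside it. Their expectations were 7.69 and 7.58, against like-span medians of 5.20 and 4.31. As no anchor of this pair lies in the stretch, these values do not measure contacts inside it. Whether the genome of HAP1 carries the hg19 sequence there, and how reads map to it, was not tested.

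**Figure D5:**
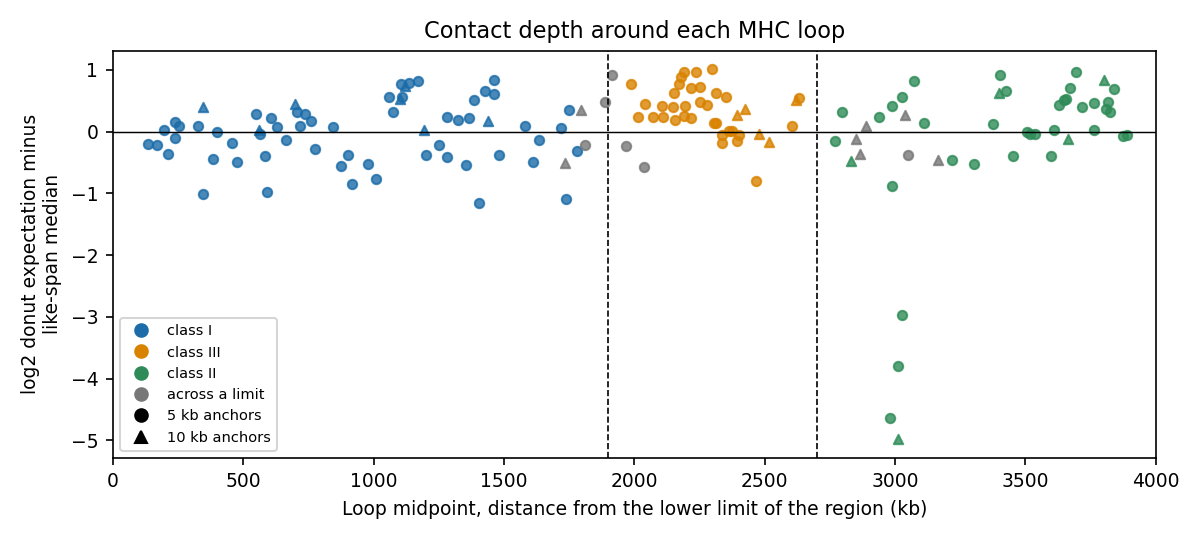
Contact depth around each of the 157 loops. The y axis is the log2 donut expectation minus the median of loops elsewhere with the same anchor width and like span, the x axis the loop midpoint as distance in kb from the lower limit, and colours mark the classes. The 4 lowest points are class II loops at -2.97 to -4.98, and all others lie between -1.16 and 1.01.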

How the data were processed

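Micro-C of 6 HAP1 replicates was available as 1 pooled loop list on hg19 coordinates. The submitters' processing notes name BWA and hg19 without their role, and the file header names juicer_tools version 1.22.01. For the caller's settings, the pooling and the library depths, the sources used here give nothing. Per the file headers, the authors deposited an observed count of contacts for each loop, 4 expected contact values on the same count scale and 4 q-values, besides the number of merged pixels and the cluster radius. Nothing in the labels says whether replicates were separate cultures.

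From these, span (between anchor midpoints), strength (observed count over donut expectation) and loops per Mb were computed with scipy 1.17.1 and pandas 2.3.3 (Python 3.11.15, numpy 2.4.6), and drawn with matplotlib 3.10.9. Positions are printed 1-based. Genome length was taken from the first to the last loop of each chromosome. Like-span medians used 40 span bins for 5 kb and 20 for 10 kb anchors, over loops outside the region. Anchors overlapping by at least 1 bp were merged. Densities were compared by an exact conditional binomial test with Benjamini-Hochberg adjustment over 5 comparisons, after the functions had been tested on simulated data. Intervals are 95% ones. Named loops are, per class, the 3 with the most contacts, the 3 with the highest ratio and the 2 longest, with the 6 best supported at each inner limit, the 8 fullest anchors and the 3 longest anchor-free stretches. Other loops named were chosen after their values were seen. The region, the lists and the limits were chosen with earlier results of these data known. Loop sequences and genes at anchors were not analysed here, for want of an hg19 genome.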

Additional observations from a re-analysis of the deposited data

How the results depend on the processing

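Of 120 alternative values, 105 kept their direction and side of the threshold, or stayed within the interval or 1.5 times of the value reported. The density ratio of the region to the rest of the genome ran from 2.36 to 2.70 over 8 alternatives (highest adjusted p = 0.000392, exact conditional binomial test). That to the rest of chromosome 6 ran from 2.15 to 2.485. Class III over class I and over class II passed the threshold with halved loop ends (1.57 and 1.63), but not by loop midpoint (1.47 and 1.45). Class III over class II also passed it without the 4 class II loops of low expectation (1.71, adjusted p = 0.0402, same exact test), an alternative chosen after seeing the data, in a range over its 11 alternatives of 0.0286 to 0.650. Class II over class I, not called, changed direction to 1.04 with 10 kb anchors alone and to 1.01 by loop midpoint. With 10 kb anchors alone, 7 loops in class I and 5 in each other class, the median span was 250 kb in class I and 300 kb in class III. The median ratios were then 2.42 in class I, 2.67 in class III and 2.85 in class II. Against the highest of the 4 expectations the median ratio was 3.21 in class I and 2.90 in class III, a higher divisor by construction. The upper inner limit was crossed by 13 loops when moved 100 kb down and by 11 when moved up, and the lower one by 6 either way. Merging anchors within 10 kb gave 27 anchors of 79 with 5 or more loops, against 14 of 135. Where no cause is given, the cause was not tested. No paired analysis was possible because the list pools the replicates, and for the same reason no replicate could be left out. Low counts, 8 at the least, limit single long loops most.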
